A study of Homo sapiens with 36 samples.

Results

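The response to Src activation that remained in MCF-10A ER-Src cells after knockdown of STAT3 was read in 4 libraries of the 36 in the series. Their titles give the siRNA against STAT3 (STAT3i) and either tamoxifen (TAM, 2 libraries) or the ethanol vehicle (ETH, 2 libraries), and every library with those labels was taken. MCF-10A is a basal-like, non-transformed mammary epithelial line, and the ER-Src derivative carries the v-Src oncoprotein joined to the hormone-binding part of the estrogen receptor, which lets tamoxifen turn Src on. All groups used here share this line, its fusion protein and an siRNA transfection. The treatment protocol names tamoxifen at 0.4 to 1 µM and AZD0530, an inhibitor of Src family kinases, at 2 to 4 µM, without assigning them to single libraries. The study's methods give 4 µM AZD0530 and either 2 or 24 h of treatment for cells transfected with siRNA, and which time applies to these RNA samples is not said in the labels. The siRNAs were commercial pools, whose sequences are not used here. The same treatment pair under the control siRNA (Ctrli) and under siRNAs against YAP (YAPi), TAZ (TAZi) and JUNB (JUNBi), with 2 libraries for each siRNA and treatment, served for comparison. Nothing in the labels says that replicates came from separate cultures, so the p-values measure the spread between these samples, which may be technical.

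STAT3 is a latent transcription factor that is phosphorylated by JAK kinases below cytokine receptors with the gp130 subunit and by Src itself, then dimerizes and binds DNA. Its best known targets include SOCS3, which shuts the pathway off again, acute phase genes and genes of cytokine signalling. Type I interferons use a related route, in which a complex that holds STAT2 and IRF9 switches on antiviral genes. AP-1, made of FOS and JUN family proteins, and NF-kB are the other main transcription factors below Src in these cells.

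The 20 ER-Src libraries held from 6419720 to 19161700 expected counts each, and the 4 STAT3i libraries held from 11392625 to 16544192. RNAs without a poly(A) tail took 9.43 to 11.7% of the counts and mitochondrial transcripts 0.288 to 0.61%. Basal markers fit the label of the line, since all 10 listed genes stood at 1 TPM or more in each STAT3i and Ctrli library, with summed levels of 2219 and 2414 TPM in STAT3i ETH and 3404 and 3669 TPM in STAT3i TAM. Luminal markers were present too, with sums from 291 to 448 TPM and 4 to 6 of 10 genes at 1 TPM or more in the same libraries. The luminal list includes ESR1, part of which the fusion protein carries. Leukocyte markers summed to between 8 and 21 TPM over the STAT3i and Ctrli libraries. Of the 9 listed leukocyte genes, 2 stood at 1 TPM or more in each of these 8 libraries. CD3E, the marker that defines T cells, was at 0 in 7 of the 8. Replicates of STAT3i ETH lay farther apart than those of most groups. The SD of their log2 ratio over 10001 genes was 0.485, against 0.275 in STAT3i TAM, 0.250 in Ctrli ETH and 0.258 in Ctrli TAM. Of the other groups, JUNBi ETH was wider, at 0.685.

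STAT3 itself was tested first. The gene (ENSG00000168610, chr17:42313324-42388540, minus strand, GRCh38) had 2017 and 1976 normalized counts in Ctrli ETH and 4597 and 4015 in Ctrli TAM, where normalized counts are expected counts divided by DESeq2 size factors over the 20 libraries. In STAT3i it had 538.5 and 539 in ETH and 715 and 631 in TAM. The knockdown thus left 27.0% of the control level in ETH and 15.6% in TAM, and STAT3 RNA was reduced but not absent. Its own rise with TAM was 1.12 ± 0.11 (log2, SE) in Ctrli, with an adjusted p of 2.13e-21, and 0.32 ± 0.21 in STAT3i, where it was not called (adjusted p = 1.0). The difference between the responses was -0.80 (adjusted p = 0.00704), which edgeR did not call. ESR1, part of which the fusion protein carries, was between 2354 and 4638 normalized counts in the 8 libraries and was called in neither comparison. RNA from the fusion and from the native gene cannot be told apart in these counts.

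With STAT3 reduced, far fewer genes were called in response to TAM. At an adjusted p under 0.01 (DESeq2, Wald test, 2 libraries against 2), 124 of 15254 tested genes, or 0.813%, were called in STAT3i, 113 of them higher (0.741%) and 11 lower (0.0721%). In Ctrli 974 of 15934 genes, or 6.11%, were called, 726 of them higher (4.56%) and 248 lower (1.56%). The other siRNAs gave 743 calls in YAPi (4.31%, with 3.23% higher and 1.09% lower), 1127 in TAZi (7.34%, with 4.51% higher and 2.83% lower) and 365 in JUNBi (2.12%, with 1.39% higher and 0.725% lower). A count that needs no fitted error gave the same order for STAT3i and Ctrli. It still requires groups that do not overlap, so a wider replicate spread can lower it. That spread was 0.485 in STAT3i ETH and 0.250 in Ctrli ETH (SD of the log2 ratio). Genes with a mean of at least 100 normalized counts, a change of at least 2-fold and no overlap between the treatments numbered 108 higher and 8 lower in STAT3i, against 376 and 99 in Ctrli. Among called genes, which passed the threshold in their own comparison, the median rise was 1.39 in STAT3i and 1.28 in Ctrli and the median fall -1.23 and -0.84 (log2). The 726 genes that rose in Ctrli had a median of 0.42 in STAT3i. Of these, 83 also rose in STAT3i, 146 (20.1%) had a called smaller response there, and 522 had neither a call in STAT3i nor a called difference. The 248 genes that fell in Ctrli had a median of -0.16 in STAT3i, with 5 also called lower, 55 (22.2%) with a called smaller response and 188 with neither.

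The number of STAT3i calls rests on few libraries and on the test. edgeR's quasi-likelihood test on the same 4 libraries called 0 genes at an adjusted p under 0.01, with 1315 at an unadjusted p under 0.05 and 33 at an adjusted p under 0.05, all 33 of them higher and among the 124. Without the first TAM library DESeq2 called 15 genes and without the second 36, while without the first ETH library it called 235. All 124 genes kept the sign of their change without either TAM library, 123 without the first ETH library and 122 without the second.

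Of the 113 genes that rose in STAT3i, 83 also rose in Ctrli, 1 was called lower there and 29 were not called. The 1 was CD24, a cell surface glycoprotein, chosen here after its values were seen, which rose by 1.08 in STAT3i and fell by 1.15 in Ctrli. The median response of the 113 genes was 1.39 in STAT3i and 1.62 in Ctrli, which share no libraries. A direct test of the difference (interaction of siRNA and treatment over 8 libraries) called 222 of 15885 genes, or 1.4%, of which 151 were negative (0.951%) and 71 positive (0.447%). The same test called 1.11% of genes against YAPi (0.566% positive, 0.547% negative), 2.12% against TAZi (1.12% positive, 0.994% negative) and 1.14% against JUNBi (0.721% positive, 0.419% negative), always with the same STAT3i libraries. Of the 113 genes, 25 had a negative and 6 a positive called difference, so most of the remaining rises were not shown to differ from those in Ctrli.

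SERPINB4 and SERPINB3, neighbouring serpins on chromosome 18 that inhibit proteases in squamous epithelium, led the list. SERPINB4 had 2.5 and 1.0 normalized counts in STAT3i ETH and 760.1 and 296 in STAT3i TAM, a change of 8.16 ± 0.82 (adjusted p = 9.69e-20) that starts from 3 and 1 reads. In Ctrli it went from 9.2 and 8.1 to 10633 and 9336.5, a change of 10.19. TAM thus raised the gene from almost nothing under both siRNAs, and the difference of -2.03 was not called (adjusted p = 0.472). SERPINB3 rose from 40.6 and 28.8 to 1645 and 928 in STAT3i (5.20 ± 0.32, adjusted p = 1.27e-53), and from 68.2 and 47.3 to 20098 and 18675 in Ctrli, so the difference of -3.19 was called (adjusted p = 3.24e-06). Reads of these near-identical neighbours may have been split between them by the counting, so their separate values are uncertain.

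IL24, a cytokine of the IL-10 family, and SOCS3 kept a rise that was much smaller than in Ctrli. IL24 (ENSG00000162892, chr1:206897443-206904139) had 12.7 and 32.9 normalized counts in STAT3i ETH and 516 and 407 in TAM, a change of 4.36 ± 0.38 against 8.97 ± 0.28 in Ctrli, with a difference of -4.57 (adjusted p = 2.62e-25). SOCS3 had 26.2 and 38.0 in ETH and 299.5 and 221 in TAM, a change of 3.02 ± 0.38 against 5.77 ± 0.17, with a difference of -2.73 (adjusted p = 3e-13). In Ctrli TAM SOCS3 reached 3545 and 3528. IL1RL1, the receptor for IL-33, rose from 205 and 106 to 1426.5 and 724 (2.79 ± 0.34), and its difference of -1.24 was not called (adjusted p = 0.757). The remaining genes of the leading 12 were SERPINB13, another squamous serpin, the cytoskeletal genes TAGLN and MYL9, the BH3-only protein gene BIK, the complement protease gene C1R, and IFI27 and IRF9, which belong with the interferon genes. BIK, which promotes apoptosis, rose from 35.6 and 71.9 to 279 and 317, by 2.47 ± 0.37 in STAT3i and 2.31 ± 0.37 in Ctrli.

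**Figure D1:**
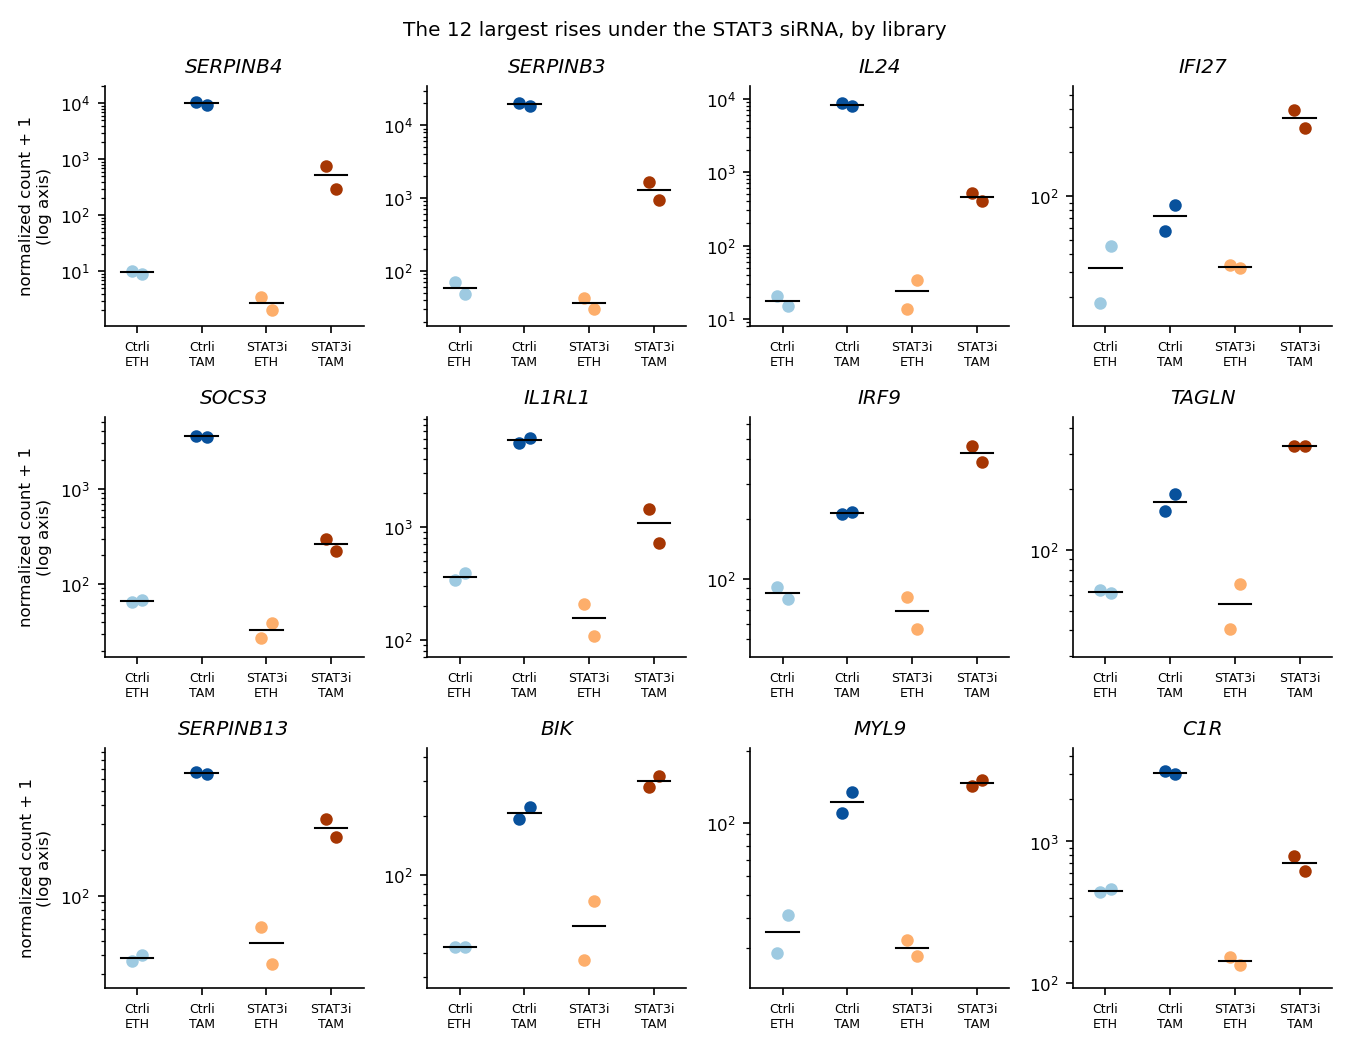
Normalized counts plus 1 (log axis) of the 12 genes with the largest rise under the STAT3 siRNA, with 1 point for each library and a line at the mean of each group of 2. In every panel both STAT3i TAM libraries lie above both STAT3i ETH libraries; SERPINB4, SERPINB3, IL24, SOCS3 and IL1RL1 stay below Ctrli TAM, while IFI27, IRF9, TAGLN and BIK lie above it.

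Acute phase and secreted defence genes, a list that holds many textbook STAT3 targets, held 7 of the STAT3i calls. Of the 13 members tested in STAT3i, 7 rose and 0 fell, all 13 had a fitted change above 0, and the median was 1.58, against 2.25 for the same genes in Ctrli and -0.02 for all genes in STAT3i. In Ctrli 16 of 18 tested members rose. The shares of all tested genes called higher were 0.741% in STAT3i and 4.56% in Ctrli. Among the complement genes named from this list, no difference from Ctrli was called. C1R, the protease that starts the classical pathway, had 152 and 133.5 normalized counts in STAT3i ETH and 795 and 620 in TAM (2.30 ± 0.25, adjusted p = 2.42e-16). Its change in Ctrli was 2.78 ± 0.12 and the difference of -0.47, with a 95% interval from -0.96 to 0.02, was not called (adjusted p = 0.752). Its level was lower in STAT3i under both treatments, since Ctrli held 441 and 458 in ETH and 3122 and 3002 in TAM. C1S, the next protease of the cascade, rose by 1.84 in STAT3i and 2.16 in Ctrli, and CFB, factor B of the alternative pathway, by 1.58 and 2.25, with 95% intervals of the difference from -1.03 to 0.40 and from -1.28 to -0.06. The serum amyloid genes differed. SAA2 rose from 769 and 626 to 2840 and 2111 in STAT3i, by 1.83 ± 0.21, and by 3.90 in Ctrli, a called difference of -2.06 (adjusted p = 1.15e-11), although SAA1 and SAA2 are so alike that the counting may have split their reads. SERPINA1 and SERPINA3, inhibitors of elastase and of cathepsin G, also had called differences, of -2.87 and -2.88, with adjusted p of 4.56e-32 and 0.00966.

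S100 and squamous differentiation genes held as many calls. Of 19 tested members, 7 rose in STAT3i and 0 fell, against 0.741% of all tested genes called higher. In Ctrli 13 rose, against 4.56% of all tested genes, and 1 fell. The median of the list was 1.63 in STAT3i and 1.96 in Ctrli. A negative called difference was found for 5 members and a positive one for 0. SERPINB2, which encodes an inhibitor of urokinase, rose from 94.0 and 95.5 to 398 and 399, by 2.07 ± 0.28 (adjusted p = 1.07e-10), and by 1.37 in Ctrli, with no called difference. KRT17, the keratin of basal and wounded epithelium, was among the most abundant of the genes called. It had 8240 and 10475 normalized counts in STAT3i ETH and 32036 and 35128 in TAM, a change of 1.84 ± 0.18 (adjusted p = 6.72e-20). In Ctrli the change was 1.96 ± 0.09, and the 95% interval of the difference ran from -0.50 to 0.28. The TAZ siRNA left KRT17 a rise of 0.67, which differed from that in STAT3i by 1.16 (adjusted p = 4.29e-05). The TAZi libraries started higher, at 31878 and 42952 in ETH, close to or above STAT3i TAM, and reached 57559 and 62037 in TAM. KRT6A, a keratin of the same wound response, was reduced from 2.00 in Ctrli to 0.99 in STAT3i (adjusted p of the difference = 8.45e-06). Keratin genes of this group have close paralogs and pseudogenes, so their counts carry that uncertainty.

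Cytokine and NF-kB target genes had more calls in STAT3i than any list but the interferon genes. Of 31 tested members, 9 rose in STAT3i and 0 fell, against 0.741% of all tested genes called higher. In Ctrli 19 rose, against 4.56% of all tested genes, and 1 fell. Over the 30 members with a mean of at least 10 counts the median was 0.51 in STAT3i and 0.71 in Ctrli. TNFAIP3, the ubiquitin-editing enzyme A20 that NF-kB induces to limit itself, had 173 and 211 normalized counts in STAT3i ETH and 506 and 486 in TAM. Its rise was 1.37 ± 0.25 in STAT3i and 1.44 ± 0.19 in Ctrli, and the difference lay between -0.63 and 0.51 (95% interval). CXCL3, a neutrophil chemokine, rose from 57.6 and 53.4 to 209.5 and 199, by 1.88 ± 0.35, against 1.93 ± 0.30 in Ctrli. Only 3 members of the list had a negative called difference, IL24, the chemokine gene CCL20 (-1.46) and the decoy receptor gene IL1R2 (-1.84), and 1 had a positive one, IL18 (0.91).

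Genes of the pericellular protease system and the matrix were among the calls too. MMP14, a membrane-bound collagenase, had 882 and 1060.1 normalized counts in STAT3i ETH and 2289 and 2573 in TAM (1.32 ± 0.19, adjusted p = 7.11e-09). Its rise in Ctrli was 1.48 ± 0.11, and the difference lay between -0.56 and 0.25. PLAU, the urokinase, and PLAUR, its receptor, rose by 1.22 and 1.38 in STAT3i and by 1.60 and 2.34 in Ctrli, with neither difference called. Fibronectin (FN1) rose from 3769 and 3556 to 6175 and 6003 in STAT3i, by 0.73 ± 0.16, and by 0.69 ± 0.10 in Ctrli (95% interval of the difference -0.30 to 0.39). Tenascin C (TNC), another matrix glycoprotein, stood apart. It went from 40.6 and 47.3 to 178 and 170.2 in STAT3i, but from 27.5 and 41.5 to 4247 and 3168 in Ctrli, a difference of -4.78 (adjusted p = 6.87e-37). ITGB6, the integrin subunit that activates latent TGF-beta, was intermediate, with a rise of 1.32 in STAT3i and 3.29 in Ctrli. Over these lists, 4 of 18 tested protease and inhibitor genes and 4 of 32 matrix and adhesion genes rose in STAT3i and 0 fell. Of all tested genes 0.741% were called higher in STAT3i. The medians of the 2 lists were 0.83 and 0.21, against 0.65 and 0.21 in Ctrli. Like the total, the counts of these lists rest on the TAM libraries. Without the first of them the calls were 2 of the acute phase, 2 of the squamous, 2 of the cytokine, 1 of the protease and 0 of the matrix genes, and without the second they were 3, 7, 3, 0 and 0. edgeR over all 20 libraries called 5, 6, 7, 6 and 3 of them, and edgeR on the 4 libraries 0.

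Interferon-stimulated genes were the list with the most calls in STAT3i. Of 31 tested members, 14 rose and 0 fell, against 0.741% of all tested genes called higher, and 30 of the 31 had a fitted change above 0, the exception being USP18. In Ctrli 9 of 30 tested members rose, against 4.56% of all tested genes called higher. The median was 1.16 in STAT3i and 0.67 in Ctrli, and 14 members were called higher in YAPi, 10 in TAZi and 3 in JUNBi. IFI27, a mitochondrial protein gene widely used as an interferon marker, had 32.2 and 30.8 normalized counts in STAT3i ETH and 394 and 292 in TAM (3.44 ± 0.35, adjusted p = 3.05e-19). In Ctrli it went from 17.3 and 43.8 to 56.4 and 86.0, which was not called. The ETH libraries of both siRNAs overlapped and both STAT3i TAM libraries lay above all others of the 8. The difference from Ctrli was 2.22, with a 95% interval from 1.04 to 3.40 that did not pass the threshold after adjustment (adjusted p = 0.0148), while the differences from YAPi (1.95), TAZi (2.25) and JUNBi (3.37) did, with adjusted p of 0.000215, 0.00515 and 1.1e-05. IFI27 also rose in YAPi (1.49, adjusted p = 6.64e-08), where its TAM libraries, at 371 and 311, lay within the range of STAT3i TAM and its ETH libraries, at 112.9 and 130.5, above those of STAT3i.

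IRF9, the DNA-binding subunit of the interferon complex, rose from 80.4 and 55.5 to 465 and 384 in STAT3i (2.64 ± 0.31) and from 90.6 and 78.4 to 212 and 215 in Ctrli (1.35 ± 0.32), a difference of 1.29 that was not called (adjusted p = 0.0687). STAT2, its partner, rose by 1.18 and 0.67. IFIT1, which binds viral RNA, was the 1 member with a positive called difference from Ctrli. It rose from 112 and 51.4 to 409 and 244 in STAT3i (2.00 ± 0.39, adjusted p = 8.07e-05), and had 61.1 and 56.5 in Ctrli ETH and 43.9 and 40.9 in Ctrli TAM, a difference of 2.45 (adjusted p = 0.00308). Members led by IFIT1 did not move as a block, because IFITM3, a membrane protein that restricts virus entry, rose less in STAT3i (0.77) than in Ctrli (1.72), a difference of -0.94 (adjusted p = 0.000213). The number of interferon calls fell to 2 without the first STAT3i TAM library, 4 without the second, 10 without the first ETH library and 7 without the second, and edgeR on the 4 libraries called 0. An edgeR fit over all 20 libraries called 9 of the 14. Of 22 interferon ligand genes, 19 were at 0 in all 4 STAT3i libraries, IFNB1, IFNG and IFNL1 among them. No ligand gene had more than 3 counts in a STAT3i library, and the highest count in Ctrli was 5, for IFNE.

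**Figure D2:**
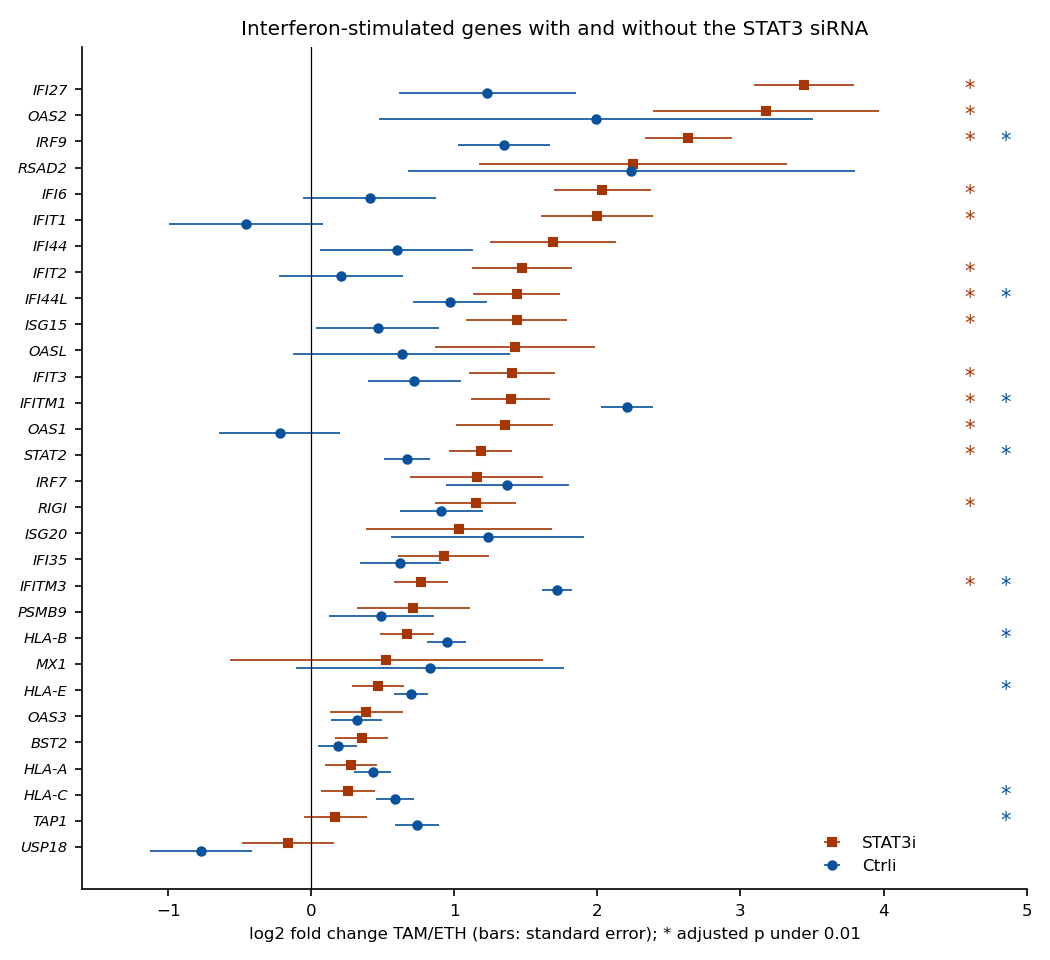
Fitted log2 fold change of TAM over ETH (bars, SE) of 30 of the 31 tested interferon-stimulated genes in STAT3i (squares) and Ctrli (circles), with an asterisk at an adjusted p under 0.01. IFI27, IRF9, IFI6 and IFIT1 lie farther right in STAT3i, IFITM1 and IFITM3 farther right in Ctrli, and USP18 lies below 0 in both.

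The sequence before the start site was read for these genes, since the pathways end on known DNA motifs. The motif TTCNNNGAA, which STAT dimers bind, reads the same on both strands, and the interferon motif was searched as GAAA, any 2 bases and GAAA, or on the other strand TTTC, any 2 bases and TTTC. The interferon motif was added after the values had been seen. In windows from 250 bases before to 50 after the start (RefSeq, GRCh38.p14) TTCNNNGAA was found in 7.66% of all 35116 promoters and the interferon motif in 3.57%. Of the 113 genes that rose in STAT3i, 105 had a symbol and 76 a promoter in the table, and TTCNNNGAA was found for 11 of these 76 (14.5%), against 8.57% of the tested genes with a promoter. The share was 8.33% (9 of 108) among the genes that rose in Ctrli with a called negative difference. The AP-1 motif TGANTCA was found for 10 of the 76 (13.2%), against 7.34% of the tested genes. Of the 12 matched interferon genes called higher, 8 held the interferon motif, against 4.06% of the tested genes with a promoter. TTCNNNGAA was found for 4 of these 12, which are part of the 11 genes counted above. These are matches of letters and not measured binding sites. The 150 bases before the start are given 5′ to 3′ for 5 of the genes described above, with matches to either motif in capitals, to show where the motifs lie.
IFI27 (chr14:94110586-94110735, plus strand): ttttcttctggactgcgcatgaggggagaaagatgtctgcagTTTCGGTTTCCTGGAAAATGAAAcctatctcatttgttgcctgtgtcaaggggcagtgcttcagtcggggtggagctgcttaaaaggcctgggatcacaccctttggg
IRF9 (chr14:24161115-24161264, plus strand): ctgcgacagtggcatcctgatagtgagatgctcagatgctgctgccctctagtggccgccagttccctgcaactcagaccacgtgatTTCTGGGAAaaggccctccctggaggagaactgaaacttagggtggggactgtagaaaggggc
IFIT1 (chr10:89392473-89392622, plus strand): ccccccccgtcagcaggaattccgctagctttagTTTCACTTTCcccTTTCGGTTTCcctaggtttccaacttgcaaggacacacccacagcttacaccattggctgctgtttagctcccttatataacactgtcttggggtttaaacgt
C1R (chr12:7091894-7092043, minus strand): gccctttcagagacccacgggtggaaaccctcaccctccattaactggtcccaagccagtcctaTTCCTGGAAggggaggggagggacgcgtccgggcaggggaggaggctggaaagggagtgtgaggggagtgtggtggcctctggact
CFB (chr6:31945945-31946094, plus strand): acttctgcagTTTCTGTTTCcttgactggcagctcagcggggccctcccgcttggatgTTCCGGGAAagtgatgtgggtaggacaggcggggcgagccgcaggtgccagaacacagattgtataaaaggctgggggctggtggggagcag
In IFI27 the STAT motif TTCCTGGAA at position -101 overlaps interferon motifs at -108 and -95, counted back from the start, so 1 run carries both. IRF9 holds TTCTGGGAA at -63 and no interferon motif, IFIT1 holds 2 interferon motifs at -116 and -103 and no TTCNNNGAA, C1R holds TTCCTGGAA at -86, and CFB holds TTCCGGGAA at -92 and TTTCTGTTTC at -140. RefSeq lists a second start for IFI27, whose window holds the same run.

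A small set of genes responded in STAT3i and not in Ctrli. CDKN1C, which encodes the cell cycle inhibitor p57, turned from lower to higher. It had 126 and 152 normalized counts in STAT3i ETH and 407 and 422 in TAM, a rise of 1.57 ± 0.27 (adjusted p = 2.76e-06). In Ctrli it had 81.4 and 145 in ETH and 30.1 and 59.4 in TAM (-1.36 ± 0.52, not called). The fitted changes in YAPi, TAZi and JUNBi were -1.51, -3.43 and -3.27, the last 2 of them called, and the difference from STAT3i was called against all 4 siRNAs, with 2.96 against Ctrli (adjusted p = 1.16e-06). In ETH CDKN1C had 426 and 1071 in JUNBi, above STAT3i TAM, but 74.5 and 162 in YAPi and 141 and 297 in TAZi, below it. The rise within STAT3i itself was not called when the DESeq2 or edgeR model was fitted over all 20 libraries, or without either TAM library, and edgeR called neither the rise nor its difference from Ctrli. FBXO32, a ubiquitin ligase subunit known from muscle atrophy, rose from 87.2 and 54.4 to 331 and 318 in STAT3i (2.19 ± 0.33, adjusted p = 1.19e-08). Its Ctrli libraries were at 76.3 and 112 in ETH and 109 and 90.0 in TAM. The fitted changes elsewhere were 0.10 in Ctrli, -0.79 in YAPi, -0.94 in TAZi and -1.17 in JUNBi, and all 4 differences were called. Except in Ctrli, these groups started higher than STAT3i. In ETH FBXO32 had 297 and 179 in YAPi, 269 and 227.5 in TAZi, and 410 and 418 in JUNBi, a range that holds STAT3i TAM.

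CSF1R, the receptor for macrophage colony-stimulating factor, followed the same pattern at a low level, from 43.2 and 41.1 to 178.5 and 154 in STAT3i (1.97 ± 0.39), with -0.91 in Ctrli, -0.68 in YAPi, -0.80 in TAZi and -1.48 in JUNBi. In ETH it had 132 and 188 in YAPi, around STAT3i TAM, but 56.7 and 74.9 in TAZi and 59.2 and 74.9 in JUNBi. The 4 differences of CSF1R were called, although that from Ctrli (2.88, adjusted p = 0.00174) was lost in 5 of the 8 fits that left out 1 library. ERRFI1, a feedback inhibitor of the EGF receptor, rose by 0.97 in STAT3i and had a fitted change of 0.13 in Ctrli, a difference of 0.85 that was not called (adjusted p = 0.0232). The differences of FBXO32 and IFIT1 from Ctrli were each lost in both edgeR fits and in 6 of the 8 fits that left out 1 library.

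The falls that remained were few. Of the 11 called genes, 3 were small-RNA or unnamed identifiers with counts in 1 of the 4 libraries and zeros in the rest, and their fitted falls carry no size. Of the others, 6 had a symbol, a mean of at least 100 normalized counts and no overlap between treatments. DUSP6, the phosphatase that inactivates ERK, fell from 764.5 and 691 to 380.4 and 323 in STAT3i (-1.05 ± 0.22, adjusted p = 0.000497), and had 703 and 757 in Ctrli ETH and 826 and 988.5 in Ctrli TAM. The direction thus differed between the siRNAs, with fitted changes of 0.32 in Ctrli, 0.57 in YAPi, 0.15 in TAZi and 0.18 in JUNBi and called differences of -1.37, -1.62, -1.21 and -1.25 (adjusted p between 8.13e-08 and 0.00453). SLC20A1, a phosphate transporter, fell from 5140.1 and 5195 to 2783 and 2802 (-0.89 ± 0.17, adjusted p = 2.5e-05) and its difference was called against all 4, with -0.72 against Ctrli (adjusted p = 0.00365). The difference of DUSP6 from Ctrli was lost by edgeR on the 8 libraries alone, and that of SLC20A1 by both edgeR fits, TMM factors, effective length offsets and 5 of the 8 fits without 1 library. RAPGEF3, a cyclic AMP-activated exchange factor, fell from 192 and 203 to 71.1 and 72.8 (-1.46 ± 0.34), and SAPCD2, a spindle orientation protein, by 1.23. ALDH1A3, a retinaldehyde dehydrogenase, and XDH, xanthine dehydrogenase, fell by 0.86 and 0.83 in STAT3i and by 1.30 and 0.97 in Ctrli, with no called difference.

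**Figure D3:**
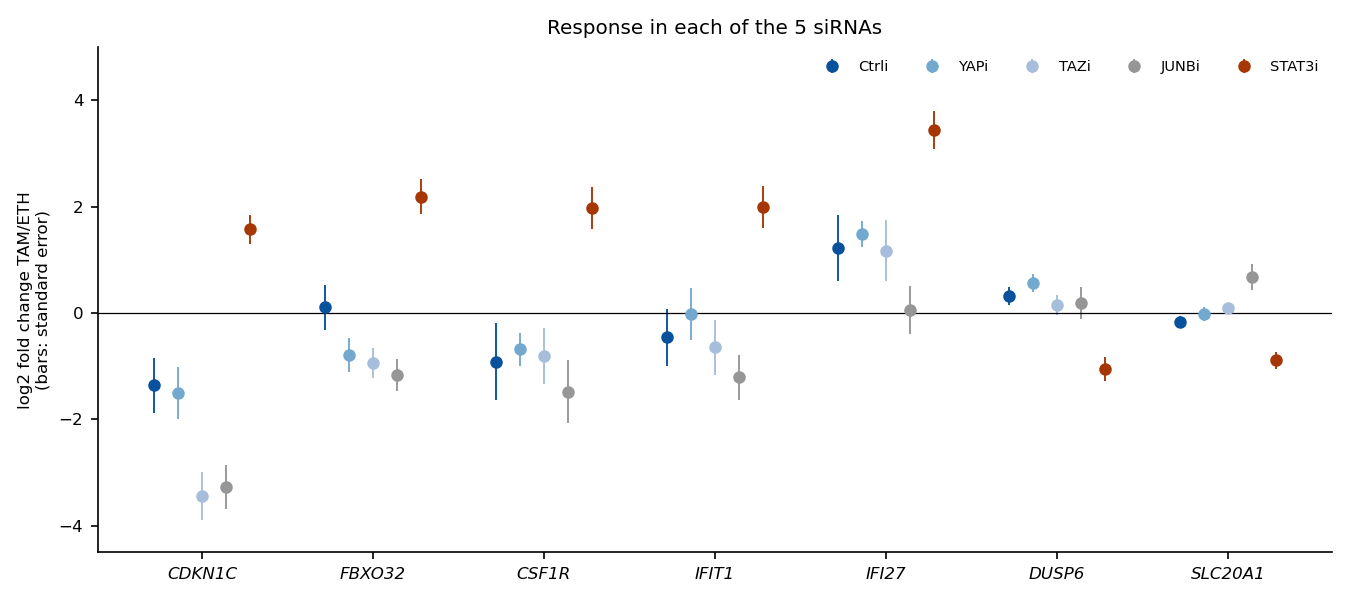
Fitted log2 fold change of TAM over ETH (bars, SE) under each of the 5 siRNAs for 7 genes, with 2 libraries for each siRNA and treatment. STAT3i is highest for CDKN1C, FBXO32, CSF1R, IFIT1 and IFI27 and lowest for DUSP6 and SLC20A1; for IFI27 the difference from Ctrli was not called, nor was that from YAPi for IFIT1.

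Smaller responses with the STAT3 siRNA were read from the genes with a called difference. Over the 151 genes with a negative difference, the median response was 2.08 in Ctrli and 0.31 in STAT3i. The siRNAs were close under ETH, where the median ratio of STAT3i to Ctrli was -0.11 (log2), and apart under TAM, where it was -1.85. These medians describe the genes that the test chose. Among the STAT3 target and gp130 feedback genes, 16 of 30 tested members rose in Ctrli, against 4.56% of all tested genes. In STAT3i 1 rose, SOCS3, with 6 at an unadjusted p under 0.05, against 0.741% of all tested genes called higher. The medians were 0.85 and 0.22, and 6 members had a negative called difference, among them STAT3. The others were SOCS3, the transcriptional repressor BCL6 (-1.23), the kinase PIM1 (-2.04), the IL-4 receptor IL4R (-1.44) and the oncostatin M receptor OSMR (-0.98). PIM1 had 109 and 138 normalized counts in STAT3i ETH and 104 and 129 in TAM, against 99.7 and 108 in Ctrli ETH and 396 and 407 in Ctrli TAM.

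AP-1 and immediate early genes had no call in STAT3i by the same fit. By DESeq2 0 of 22 tested members were called, with 2 higher and 1 lower at an unadjusted p under 0.05. Of all tested genes 0.813% were called in STAT3i, so 0 of 22 is near that share. In Ctrli 9 of the 22 rose, against 4.56% of all tested genes. On the 4 libraries edgeR called 0 here and 0 among all genes. Over all 20 libraries edgeR called 0 and DESeq2 2. The medians were -0.00 in STAT3i and 0.47 in Ctrli. A low median was not particular to STAT3i, since it was 0.04 in TAZi, 0.15 in YAPi and 0.35 in JUNBi. FOS had 181 and 152 normalized counts in STAT3i ETH and 164 and 112 in TAM, against 251 and 290.5 in Ctrli ETH and 1527 and 1627 in Ctrli TAM, a difference of -2.82 (adjusted p = 9.79e-17). JUNB, which pairs with FOS, had 356 and 693 in STAT3i ETH and 644 and 665 in TAM, against 546 and 701 in Ctrli ETH and 2944 and 4116 in Ctrli TAM, a difference of -2.19 (adjusted p = 9.93e-08). The groups did not overlap in Ctrli and overlapped in STAT3i. BATF3 (-3.80) and the mRNA decay factor ZFP36 (-2.15) completed the negative differences of this list, and KLF6 had a positive one (0.81).

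Other genes with a large negative difference had varied functions. ADAMTS4, an aggrecan-cleaving protease, had 2.5 and 1.0 normalized counts in STAT3i ETH and 24.2 and 5.3 in TAM, and 1268 and 1126 in Ctrli TAM after 2.0 and 2.3 in ETH. STC1, the glycoprotein stanniocalcin, kept a rise of 4.78 from 3.4 and 7.2 to 181 and 104, against 8.60 in Ctrli. CLEC2B, GRAMD1B and SNCAIP rose by 4.62, 6.34 and 4.97 in Ctrli and were not called in STAT3i. TNFRSF6B, a decoy receptor for FAS ligand, had 350 and 884.5 in STAT3i ETH and 896 and 1054 in TAM and 13008 and 18399 in Ctrli TAM; its locus overlaps a longer gene, so its reads may be shared. MT1X, a metallothionein of a family of close copies, rose from 430.1 and 425 to 1291 and 1171 in STAT3i (1.52 ± 0.20) and by 4.07 in Ctrli.

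Positive differences were fewer. Over the 71 genes with a positive difference, which the test chose for it, the median response was -1.22 in Ctrli and 0.20 in STAT3i. TIMP3, an inhibitor of matrix metalloproteases, had 566 and 691 normalized counts in STAT3i ETH and 510.5 and 574 in TAM, while in Ctrli it went from 511 and 545 to 74 and 73.7, a difference of 2.62 (adjusted p = 1.57e-13). SNCG, ZBED2, SEMA3C and ANKRD2 fell by 1.89 to 2.80 in Ctrli, were not called in STAT3i, and differed by 2.30 to 2.56. H4C12, a histone gene of a family with close copies, had 0 counts in both Ctrli TAM libraries, 767 and 414 in Ctrli ETH, and 929, 133.5, 756 and 579 over the STAT3i libraries, so its fitted difference has no size that can be read.

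**Figure D4:**
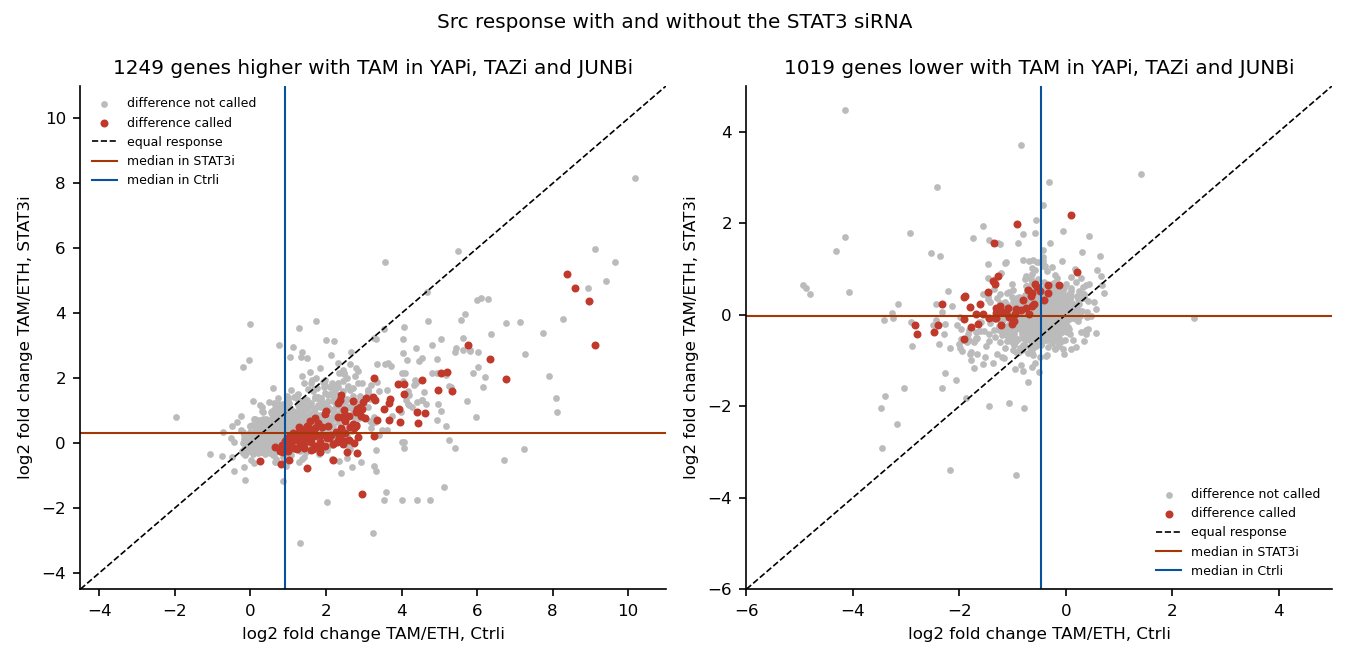
Fitted log2 fold change of TAM over ETH in Ctrli (x axis) and STAT3i (y axis) for 1249 genes higher (left) and 1019 lower (right) with TAM in the YAPi, TAZi and JUNBi libraries pooled, with called differences in red. These genes also changed in the same direction in each of the pooled siRNAs, none of which targets STAT3. The median of the higher genes is 0.31 in STAT3i and 0.91 in Ctrli, and that of the lower genes -0.04 and -0.46.

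To set Src genes against both siRNAs without choosing them in either, genes were taken from the other 3 knockdowns. STAT3 RNA in those libraries stood at 98.1 to 126% of Ctrli, so this choice favours genes that respond with STAT3 present. Genes that respond only in STAT3i are likely to be left out. The lower medians in STAT3i and the 0 stronger calls below may therefore be partly built in. TAM against ETH over the 12 YAPi, TAZi and JUNBi libraries called 2294 of 19504 genes (11.8%, with 6.5% higher and 5.26% lower). Of these, genes were kept that changed in the same direction in each of the 3 siRNAs. They also needed a fitted change in STAT3i and Ctrli, which left 1249 higher and 1019 lower genes. The 1249 higher genes had a median response of 0.31 in STAT3i (quartiles 0.04 and 0.83) and 0.91 in Ctrli (quartiles 0.37 and 1.86). All genes with a mean of at least 10 counts in STAT3i had a median of -0.02 in both. Of the 1249 genes, 985 (78.9%) were above 0 in STAT3i and 1191 (95.4%) in Ctrli. Calls were made for 82 (6.57%) in STAT3i and 558 (44.7%) in Ctrli. The test of the difference called 139 (11.1%) weaker and 0 stronger in STAT3i. The 1019 lower genes had medians of -0.04 and -0.46, with 545 (53.5%) below 0 in STAT3i and 924 (90.7%) in Ctrli, and 55 (5.4%) weaker and 0 stronger. Across genes, the responses in the 2 siRNAs had a Pearson correlation of 0.65 for the higher and 0.11 for the lower genes. Genes are not independent replicates, and the value is a description. Whether STAT3i was sequenced or processed apart from Ctrli cannot be told apart from the siRNA here, since gene length minus effective length was 49 in all STAT3i and JUNBi libraries and between 49.47 and 49.49 in the other 12.

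The remaining lists had few or no calls. For comparison, DESeq2 called 0.813% of all tested genes in STAT3i and 6.11% in Ctrli. In STAT3i 0 calls in a list of this size is near that share. All 29 DNA replication genes and all 25 mitosis genes had a fitted change below 0 in STAT3i, with medians of -0.44 and -0.39, but DESeq2 called 0 of them, with 12 of each list lower at an unadjusted p under 0.05, edgeR over all 20 libraries called 1 and 0, DESeq2 over all 20 called 3 and 0, and DESeq2 without the first ETH library called 1 and 1, all lower. Nearly the same held in Ctrli, where only 1 of the 29 and 4 of the 25 genes were above 0. The medians in Ctrli were -0.34 and -0.19, with 4 and 1 members called lower. CCNB1, the mitotic cyclin, had 3976 and 3513 normalized counts in STAT3i ETH and 2727 and 2374 in TAM (-0.56 ± 0.18, adjusted p = 0.116). MAPK feedback genes had a median of -0.37 in STAT3i and 0.01 in Ctrli, with DUSP6 the 1 call. YAP/TAZ target genes had a median of 0.38 in STAT3i, with 20 of 22 above 0 and 1 called (WWC1, 0.83), against 0.05 in Ctrli, -0.32 in YAPi, -0.40 in TAZi and -0.29 in JUNBi. WWC1 itself went the other way, since it rose by 2.62 in Ctrli, a called difference of -1.78. Its call in STAT3i was lost with effective length offsets and in both edgeR fits. Of the hypoxia and glycolysis genes 2 of 28 rose in STAT3i, STC1 and NDRG1, and 9 of 29 in Ctrli. NDRG1 rose from 1013 and 1148.5 to 2112 and 2136 (0.97 ± 0.19), against 2.53 in Ctrli, a called difference of -1.55. No call was made in STAT3i by the unblocked DESeq2 and edgeR fits on its 4 libraries among 32 cholesterol and fatty acid, 20 p53, 24 ATF4 and unfolded protein response, 9 estrogen receptor and 15 mitochondrially encoded genes, of which 3, 0, 3, 1 and 1 had an unadjusted p under 0.05. The edgeR fit on these 4 libraries called 0 genes in total, so its 0 says nothing about these lists.

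**Figure D5:**
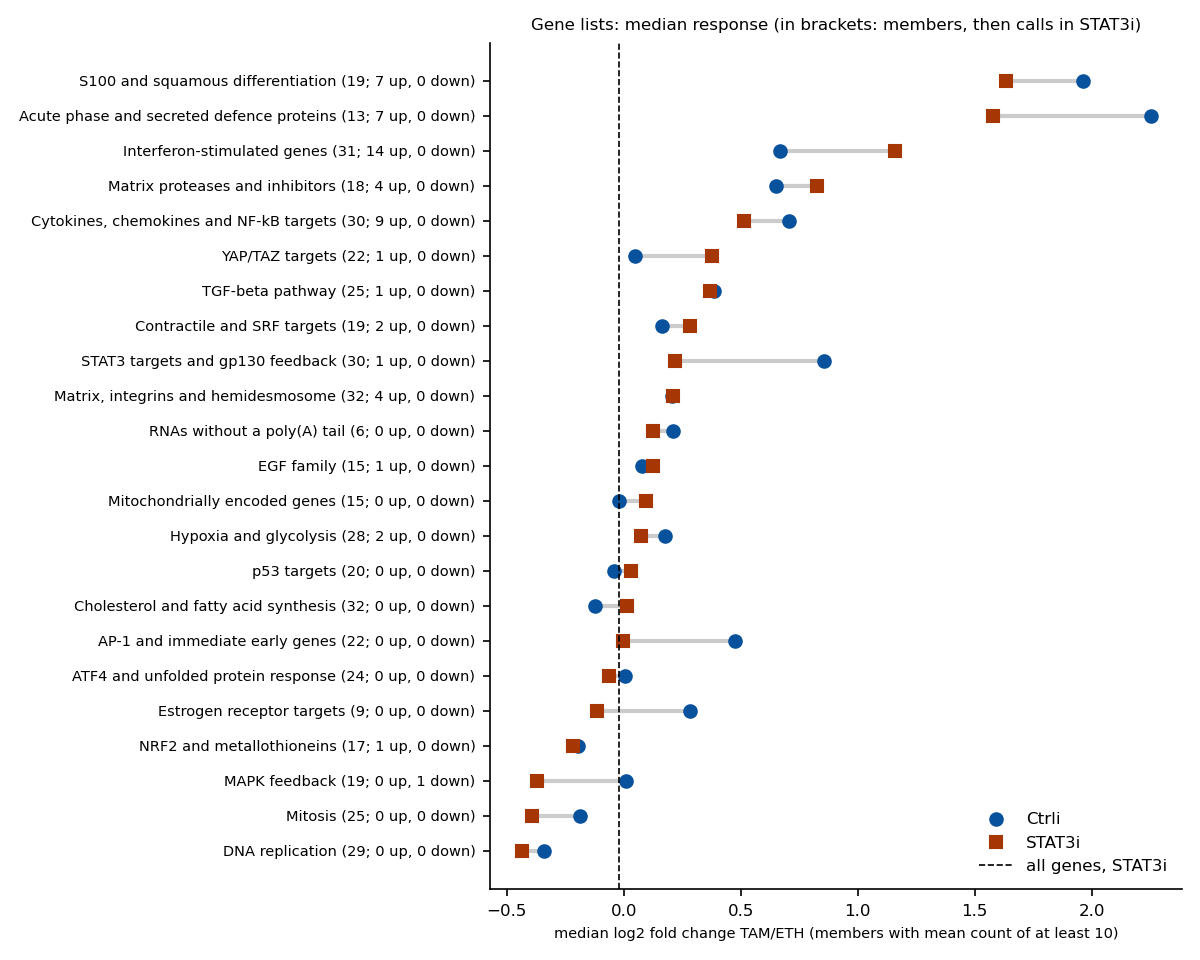
Median fitted log2 fold change of TAM over ETH for each gene list in STAT3i (squares) and Ctrli (circles), over members with a mean of at least 10 counts, with a dashed line at the median of all genes in STAT3i. STAT3i lies far to the left of Ctrli for the STAT3 targets (0.22 against 0.85) and AP-1 genes, and to the right for interferon-stimulated genes (1.16 against 0.67) and YAP/TAZ targets.

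Fibroblast and endothelial markers were at low levels in these cultures. FAP, a serine protease of activated fibroblasts, was the 1 fibroblast marker called, from 299 and 210 to 646 and 557 in STAT3i (1.24) and by 1.39 in Ctrli, and the summed fibroblast list was 54.7 and 35.9 TPM in STAT3i ETH, 90.1 and 69 in STAT3i TAM and 61.7 to 77.2 in Ctrli. Its part in the matrix and protease lists was not tested.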

How the data were processed

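RNA was measured by sequencing. The authors built libraries from total RNA with a ribosomal RNA depletion and profiling kit, trimmed the reads, aligned them with STAR to the GENCODE v30 transcriptome (hg38) and quantified genes with RSEM; strand setting and versions are not given in the sources used here. They deposited RSEM expected counts, which share reads among similar genes and are not normalized, and TPM, which the authors scaled per length and to a fixed total. The 20 ER-Src libraries were used and 16 MDA-MB-231 libraries were not. Of 61471 identifiers the 60725 Ensembl genes were kept, leaving out 649 numeric, 96 spike-in and 1 other identifier, at most 0.109% of a library's counts. Symbols and gene coordinates came from GENCODE v44, which matched 56558 (93.1%).

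Expected counts were rounded and tested with DESeq2 1.42.0 in R 4.3.3 (size factors, Wald test, default independent filtering, Benjamini-Hochberg adjusted p under 0.01), with the 4 libraries of an siRNA for each response and 8 libraries for the interaction. Normalized counts use size factors over the 20 libraries; fold changes come from each fit. edgeR 4.0.16 was the alternative tool. In simulated counts 200 genes with a mean of at least 100 normalized counts were changed by 1.5 (log2). For the STAT3i response (31544 genes) DESeq2 recovered 80% with 7 false calls and edgeR 77% with 10. For the interaction (34515 genes) they recovered 66% and 60%. Counts were drawn independently from DESeq2's fitted dispersions, without any deviation shared by same-numbered libraries. The shares thus hold for that setting only, and edgeR on the real 4 STAT3i libraries called 0 genes. Intervals are 95% from the standard error. Alternatives were TMM factors, a mean count of at least 10, effective length offsets, a fit over all groups, a replicate block and leaving out each library.

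Members, gene lists and rules were chosen with earlier results of these data known. Named genes were STAT3 and ESR1; the 12 largest rises and up to 12 falls among called genes with a symbol, a mean of at least 100 normalized counts and no overlap; the 8 largest differences from Ctrli in each direction; 8 genes called in both siRNAs; up to 8 called in STAT3i with a called difference; and up to 4 members of each list, the called ones with the largest change or else the most abundant. Further genes of a list that were called, or that had a called difference, were named after their values were seen (among them CD24, FOS, JUNB, BATF3, ZFP36, PIM1, IL4R, BCL6, OSMR, KRT6A, SERPINA1, SERPINA3, CCL20, IL1R2, IL18, STAT2 and IFITM3). Of the 12 rises, MYL9 had a mean below 100 by the size factors over the 20 libraries. Of 7 listed RNAs without a poly(A) tail, 6 were matched. Some items that the rules name are not reported here.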

Additional observations from a re-analysis of the deposited data

Results flagged for a closer look

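The results in this part were taken up because the response to TAM differed between the STAT3 siRNA and another siRNA by the interaction test (DESeq2, adjusted p under 0.01). The number of genes with such a difference was 222 against Ctrli, 177 against YAPi, 343 against TAZi and 185 against JUNBi. The 4 comparisons share the STAT3i libraries, so their counts are not independent of each other.

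Among the genes named here, the response in STAT3i was below that in Ctrli for STAT3 itself by a log2 difference of -0.80. For secreted and defence genes the difference was -3.19 for SERPINB3, -4.57 for IL24, -6.09 for ADAMTS4, -4.78 for TNC, -3.80 for STC1 and -2.06 for SAA2. It was -2.73 for SOCS3, -1.97 for ITGB6, -1.78 for WWC1, a Hippo pathway scaffold, -1.55 for NDRG1 and -2.54 for MT1X. The difference was -3.70 for both CLEC2B and GRAMD1B, -3.32 for SNCAIP and -3.30 for TNFRSF6B. DUSP6 and SLC20A1, which were called lower in STAT3i and not in the other 4 siRNAs, had differences of -1.37 and -0.72.

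The response in STAT3i was above that in Ctrli by 2.96 for CDKN1C, 2.88 for CSF1R, 2.45 for IFIT1 and 2.09 for FBXO32. For genes that were lower with TAM in Ctrli and were not called in STAT3i the difference was 2.62 for TIMP3, 2.56 for SNCG, 2.39 for ZBED2, 2.31 for SEMA3C, 2.30 for ANKRD2, 0.80 for TP53I3, a quinone oxidoreductase that p53 induces, and 1.18 for SLC3A2, the heavy chain of amino acid transporters. KLF6, a zinc finger factor called in neither siRNA alone, had a difference of 0.81. H4C12 had a fitted difference of 11.29 that rests on zeros in both Ctrli TAM libraries and gives no size.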

How the results depend on the processing

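With 2 libraries a group, counts of calls moved more than directions. For the STAT3i response (124 calls) a DESeq2 fit over all ER-Src groups gave 347 calls, edgeR on the 4 libraries 0 and, at an adjusted p under 0.05, 33. Leaving out 1 library gave 15 to 235 calls for STAT3i and 420 to 500 for Ctrli (974). The remaining alternatives for STAT3i, TMM factors, a mean count of at least 10, effective length offsets and edgeR over all groups (the last and the 0.05 threshold chosen after seeing the data), gave 113 to 158. For the differences edgeR called 56 genes against Ctrli, 1 against YAPi, 118 against TAZi and 3 against JUNBi, and edgeR over all groups 144, 115 and 290 against Ctrli, YAPi and JUNBi. DESeq2 over all groups called 560 against JUNBi. Leaving out 1 library gave 119 to 397 calls against Ctrli, 83 to 216 against YAPi, 191 to 434 against TAZi and 88 to 299 against JUNBi; against Ctrli the highest count came without STAT3i ETH replicate 1 and the lowest without Ctrli TAM replicate 1. The cause was not tested. The median response in STAT3i of the higher Src genes was 0.3075, 0.2686 by edgeR and 0.2906 to 0.3585 without single libraries, and that of the lower genes was -0.0355 and -0.0675 to 0.0329 without single libraries, so its sign is not settled. Of the 46 named genes called in STAT3i and the 32 with a called difference from Ctrli, 0 changed sign under any alternative; edgeR on the same libraries lost 46 and 20 of these calls, and 77 of 184 and 50 of 256 single-library fits lost one.

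Replicate numbers are shared by all groups but nothing says what they mark. Deviations of same-numbered libraries over 10001 genes correlated most in STAT3i (0.612) and JUNBi (0.524), then in YAPi (0.398), TAZi (0.196) and Ctrli (0.151). A replicate block changed the calls to 208 in STAT3i, 626 in Ctrli and 357 for the difference from JUNBi; the other differences stayed within 1.5 times. The block also called 1 DNA replication and 3 mitosis genes lower in STAT3i, and 1 cholesterol and fatty acid, 1 estrogen receptor and 1 mitochondrially encoded gene higher, where the fit without it called 0.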
